A study of Mus musculus with 8 samples.

Results

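The nuclear-encoded respiratory chain was followed through 36 genes, chosen by symbol among the 24421 rows of a gene count table. They comprise 14 subunits of complex I, 4 of complex II, 6 of complex III and 11 of complex IV, with cytochrome c as the mobile carrier. Ndufa4, once named as a complex I subunit and now assigned to complex IV, was counted with complex IV. All 36 passed the filter on low counts, and their mean levels ran from 21.1 CPM (counts scaled to library size) for Ndufa1 to 292 CPM for Sdha.

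The cells were KPCY, a mouse pancreatic cancer line labelled as male, and the data belong to a project on cachexia in pancreatic cancer. Stable transduction with a lentiviral vector that inhibits miR-27a-3p gave the knockdown group (4 libraries), and a scrambled vector gave the control group (4 libraries). Both groups carry a lentivirus and went through puromycin selection (2 µg/mL for 7 days). Both were grown with 4.5 g/L glucose and 10% serum, and RNA was isolated 24 hours after the cells were plated. The labels name biological replicates but describe no more than 1 stable line per vector. The inhibitor and any other difference between these lines therefore cannot be told apart, and p-values measure only the spread between these libraries.

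The respiratory chain passes electrons from NADH (complex I) and from succinate (complex II) through ubiquinone to complex III, then by cytochrome c to complex IV, which reduces oxygen. Complexes I, III and IV pump protons, and the gradient drives ATP synthase. Most subunits are made from nuclear genes, while some core subunits come from mitochondrial DNA; the latter were not analysed here. The promoters of many nuclear members are known to bind NRF1, ETS-family factors such as GABP, or YY1. MicroRNAs of the miR-27 family act by pairing of the seed with sites in 3′ UTRs.

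The inhibited microRNA is printed with its seed, bases 2 to 8, in capitals, because the seed selects targets. miR-27a-3p (GRCm38.p6 chr8:84208727-84208747, plus strand) and its relative miR-27b-3p (chr13:63300760-63300780, plus strand) share that seed, and both sequences are from RefSeq.
miR-27a-3p: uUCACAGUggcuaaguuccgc
miR-27b-3p: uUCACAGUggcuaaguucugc

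Matches to this seed were searched in the longest annotated 3′ UTR of each gene (GENCODE vM21). The 8-base site ACTGTGAA occurred in 1 of 36 members, Sdha, and in 6.42% of the 11355 tested genes with a UTR. The 7-base site ACTGTGA, which the longer site contains, occurred in 4 of 36 members (Sdha, Ndufs4, Uqcrq and Ndufa2) and in 17.7% of tested genes. Member UTRs were short, with a median of 244.5 bases against 1199 bases over the tested genes. None of the 4 members with the 7-base site was called higher or lower in the knockdown. The 6-base core CTGTGA, which both longer sites contain, occurred in 10 of 36 members and in 49.1% of tested genes. Its carriers include Sdhc and Cycs, which were called lower. The longer sites of Sdha, Ndufs4 and Uqcrq are printed with the seed match in capitals to show the pairing with the seed above. That of Ndufa2 is not printed.
Sdha: tctacttctcACTGTGAAtgtaacta
Ndufs4: tctctgcttgACTGTGActgaagtg
Uqcrq: agttgcttagACTGTGAggcaaatg

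Sequencing depth was 19165513 to 23542275 counts per library. Scrambled replicate 2 stood apart, with a chi-square of 5.19 to 5.36 per gene against the other scrambled libraries, where all other pairs within a group gave 1.73 to 2.35. Of the ductal epithelial markers, Krt8, Krt18, Krt19, Krt7 and Cdh1 were abundant, at group means of 729 to 3254 CPM. Epcam was low at 5.62 CPM in the knockdown and 7.15 CPM in the scrambled libraries, and the levels of Cldn7 and Sox9 are not given here. Of the 8 epithelial markers 3 were called higher and 3 lower (75% called, against 47.9% of all tested genes). Summed fibroblast markers stood at 0.725 to 1.38 CPM in the knockdown and 0.943 to 1.41 CPM in the scrambled libraries, and leukocyte markers at 2.50 to 4.30 and 3.64 to 3.93 CPM. Endothelial markers summed to 0.182 to 0.665 CPM in the knockdown and 0.340 to 1.03 CPM in the scrambled libraries, and acinar markers, all from Cela1, to 1.92 to 2.81 and 2.43 to 3.98 CPM. Col1a2, Dcn, Lum, Pdgfrb, Adgre1, Cpa1, Prss1, Amy2a5 and Ptf1a had 0 counts in all libraries, where 3 counts would be 0.127 to 0.157 CPM.

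Counting could blur some members: 11 of the 36 share exon bases with another annotated gene and 8 have a near-identical annotated copy, and no source used here says whether strand was used. Among the 13 called members 8 have neither, and the others are named beside their values.

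In the knockdown 3 of 4 members of complex II, 3 of 6 of complex III and cytochrome c fell, while 4 of 11 members of complex IV rose and 1 fell, and 1 of 14 in complex I fell. Of the 36 members 4 rose and 9 fell at an adjusted p under 0.05 (edgeR's quasi-likelihood test, Benjamini-Hochberg adjustment over all 11797 tested genes), and 23 did neither. That is 36.1% of the members, where 47.9% of all tested genes were called, 23.8% higher and 24.1% lower. Among the 6791 tested genes whose mean level lay in the members' range, 53.1% were called. With upper-quartile scaling the members split into 8 higher and 8 lower, and with library totals alone into 10 higher and 8 lower. Over all tested genes those scalings gave 3188 higher and 2478 lower, and 3339 higher and 2376 lower, in place of 2804 and 2841.

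Member changes were small. The median log2 fold change (knockdown over scrambled) was −0.01 over the members and 0.00170 over all tested genes, and the members ranged from −0.25 for Uqcrc1 to 0.28 for Cox7c. The median absolute log2 fold change was 0.0733 over the members, 0.133 over all tested genes and 0.1085 over the tested genes in the members' range of levels. The 4 and 4 libraries did not overlap for 13 of 36 members, 5 above and 8 below, against 42.2% of all tested genes.

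**Figure D1:**
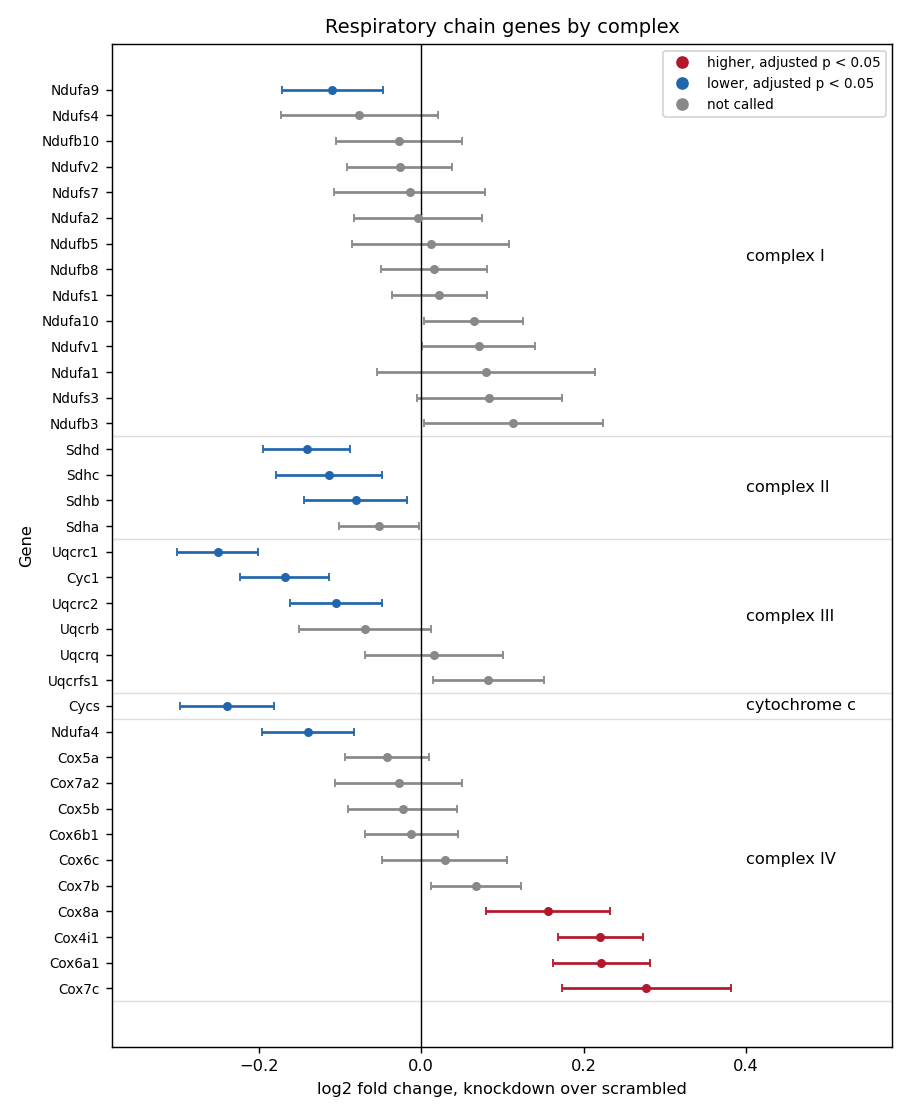
The log2 fold change of each of the 36 members (x axis, knockdown over scrambled) by complex, with bars for the 95% interval from the edgeR fit; red, blue and grey mark genes called higher, called lower and not called. The 4 red genes all belong to complex IV, and each complex has at least 1 blue gene.

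The members' summed level hardly differed. It was 3746, 3782, 3749 and 3732 CPM in knockdown replicates 1 to 4 and 3858, 3777, 3806 and 3815 CPM in scrambled replicates 1 to 4. Knockdown replicate 2 lies above scrambled replicate 2, so the groups overlap, and the mean was 1.61% lower in the knockdown (a difference of −1.61%). As a share of all counts, before any scaling factor, the members took 0.377% to 0.381% in the knockdown and 0.375% to 0.382% in the scrambled libraries. The scaling factors separate the groups, at 1.008 to 1.01 in the knockdown and 0.9905 to 0.9921 in the scrambled libraries. Without them the knockdown mean is not the lower one, so the fall of 1.61% depends on the scaling.

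Promoters, from 250 bases before to 50 bases after the start, were found in RefSeq (GRCm38.p6) for 27 of the 36 members. An NRF1 core, GCATGCGC on either strand, occurred in 4 of the 27 (Cycs, Sdhb, Cox6a1 and Uqcrc1), which is 14.8%. It occurred in 6.28% of the 9071 tested genes with a promoter entry and in 3.05% of all 27025 genes with an entry. An ETS core, CCGGAAG on either strand, occurred in 6 of the 27 (Ndufs3, Sdhb, Sdhd, Cox6a1, Cox6b1 and Cox8a), or 22.2%. The shares were 21.1% of those tested genes and 9.93% of all genes with an entry. A YY1 core, AAGATGGC on either strand, occurred in 4 of the 27 (Ndufa9, Ndufb8, Ndufs4 and Ndufs7), or 14.8%, against 5.55% and 3.19%, in each case after the start. The 3 cores do not contain each other. Stretches before the start of 4 called members are printed because they hold these cores, in capitals: Cycs (chr6:50566570-50566689, minus strand), Sdhb (chr4:140961151-140961270, plus strand), Sdhd (chr9:50603850-50603969, minus strand) and Cox6a1 (chr5:115348959-115349138, minus strand). The capitals mark the NRF1 core in Cycs and Sdhb, the ETS core in Sdhd, and in Cox6a1 first a pair of overlapping NRF1 cores and then an ETS core.
Cycs: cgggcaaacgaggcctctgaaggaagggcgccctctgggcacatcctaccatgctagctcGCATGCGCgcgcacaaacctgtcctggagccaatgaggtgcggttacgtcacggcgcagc
Sdhb: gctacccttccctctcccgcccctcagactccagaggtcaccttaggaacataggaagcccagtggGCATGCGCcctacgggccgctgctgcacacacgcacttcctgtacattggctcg
Sdhd: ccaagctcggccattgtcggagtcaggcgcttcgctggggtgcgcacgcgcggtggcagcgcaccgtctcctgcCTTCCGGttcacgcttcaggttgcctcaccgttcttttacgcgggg
Cox6a1: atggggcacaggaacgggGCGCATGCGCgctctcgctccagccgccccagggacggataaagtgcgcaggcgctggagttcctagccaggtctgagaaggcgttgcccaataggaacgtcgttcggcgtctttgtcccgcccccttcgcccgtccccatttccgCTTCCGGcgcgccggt

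Complex I oxidises NADH and was the most even of the complexes. Of its 14 members 0 rose and 1 fell (7.14% called, against 47.9% of all tested genes), and the median log2 fold change was 0.01. The count of rises was also 0 at an unadjusted p under 0.05 and by DESeq2 or limma-voom, and it was 2 with upper-quartile scaling (Ndufa10 and Ndufv1) and 4 with library totals alone (with Ndufb3 and Ndufs3). Summed levels were 983 to 1006 CPM in the knockdown and 979.6 to 1000.2 CPM in the scrambled libraries, so the groups overlap. As shares of all counts they were 0.0992% to 0.101% and 0.0972% to 0.0990%, with every knockdown library above.

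Ndufa9 (chr6:126821721-126849136), an accessory subunit near the ubiquinone site, was the member of complex I that fell. It stood at 122, 112, 119 and 121 CPM in knockdown replicates 1 to 4 and at 131, 131, 125 and 126 CPM in scrambled replicates 1 to 4. Every knockdown library lies below every scrambled one, and knockdown replicate 2 is the lowest. The fall was 1.08-fold (log2 fold change −0.11, SE 0.0318, adjusted p = 0.00694). Ndufa9 shares 67 exon bases with an antisense gene.

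Subunits of the NADH-oxidising tip were not called. Ndufv1, which binds the flavin that accepts electrons from NADH, stood at 117 ± 4.11 CPM in the knockdown and 111 ± 5.30 CPM in the scrambled libraries (SD, n = 4 here and below; adjusted p = 0.107), and without scrambled replicate 3 it was called higher at a log2 fold change of 0.10. The iron-sulfur subunits Ndufv2 and Ndufs1 had log2 fold changes of −0.03 and 0.02 (adjusted p = 0.535 and 0.562). Ndufs4, an accessory subunit of this arm and one of the genes with a 7-base seed match, stood at 48.5 ± 1.01 against 51.1 ± 4.12 CPM (adjusted p = 0.214).

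Subunits next to the ubiquinone site gave small differences as well. Ndufs3 stood at 43.8 ± 2.15 CPM in the knockdown and 41.2 ± 0.887 CPM in the scrambled libraries (adjusted p = 0.132), and Ndufs7 at 34.5 ± 0.813 against 34.9 ± 1.39 CPM (adjusted p = 0.833). In the membrane arm, the accessory subunit Ndufa10 had 92.4, 95.2, 94.7 and 91.3 CPM in the knockdown and 87.3, 89.6, 90.2 and 90.02 CPM in the scrambled libraries. These groups do not overlap, yet the adjusted p was 0.0928. The small membrane-arm subunits Ndufb3 and Ndufa1 stood at 31.8 ± 1.73 against 29.3 ± 1.84 CPM (adjusted p = 0.100) and at 21.7 ± 1.29 against 20.5 ± 1.88 CPM (adjusted p = 0.355).

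The other 4 members of complex I, Ndufa2, Ndufb5, Ndufb8 and Ndufb10, had log2 fold changes between −0.03 and 0.02. Over the 13 uncalled members the 95% intervals reached from −0.17 for Ndufs4 to 0.22 for Ndufb3, so the missing calls do not show equal levels.

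Complex II, succinate dehydrogenase, links the citrate cycle to the chain and is made entirely from nuclear genes. Of its 4 subunits 3 fell and 0 rose, and all 4 log2 fold changes were negative, with a median of −0.10. The falls are 75% of the 4 genes, where 24.1% of all tested genes were called lower. No rise was found at an unadjusted p under 0.05, or by DESeq2 or limma-voom. Summed levels were 618, 607, 608 and 606 CPM in knockdown replicates 1 to 4 and 655, 645, 645 and 644 CPM in scrambled replicates 1 to 4. Every knockdown sum lies below every scrambled one, and the mean fell by 5.81%.

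Sdhd (chr9:50596357-50603812), a membrane anchor that helps bind ubiquinone, fell most. Its level was 137, 139, 143 and 141 CPM in the knockdown and 156, 156, 155 and 151 CPM in the scrambled libraries, without overlap. The log2 fold change was −0.14 (SE 0.0273, adjusted p = 0.000184). Sdhc (chr1:171127165-171150603), the other anchor, had 93.9, 91.8, 93.7 and 96.3 CPM in the knockdown and 107, 98.4, 99.2 and 102 CPM in the scrambled libraries. These groups are also separate, with scrambled replicate 1 highest (1.08-fold lower, log2 fold change −0.11, SE 0.0330, adjusted p = 0.00695).

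The catalytic subunits of complex II differed less. Sdhb (chr4:140961203-140979193), the iron-sulfur subunit, had 88.3, 92.1, 87.0 and 88.9 CPM in the knockdown and 93.3, 95.1, 91.7 and 96.7 CPM in the scrambled libraries. Knockdown replicate 2 is above scrambled replicate 3, so the groups overlap (log2 fold change −0.08, SE 0.0323, adjusted p = 0.0438). The call of Sdhb was lost in 13 of 18 other settings, with adjusted p from 0.0313 to 0.485 over the 18, among them leaving out scrambled replicate 1, 2 or 4 or knockdown replicate 1, 3 or 4.

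Sdha, the flavoprotein that oxidises succinate and the member with an 8-base seed match, had 299, 284, 284 and 279 CPM in the knockdown and 299, 296, 299 and 294 CPM in the scrambled libraries. Knockdown replicate 1 lies within the scrambled range, and the gene was not called (log2 fold change −0.05, SE 0.0250, adjusted p = 0.0941). Without knockdown replicate 1, or without scrambled replicate 2, it was called lower, at log2 fold changes of −0.07 and −0.05.

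Complex III hands electrons from ubiquinol to cytochrome c, and 3 of its 6 members fell while 0 rose. Those that fell were the core proteins Uqcrc1 and Uqcrc2 and cytochrome c1 (Cyc1). With them 50% of the members were called, near the 47.9% of all tested genes, of which 24.1% were lower. The count of rises was 0 by edgeR, DESeq2 and limma-voom, and 1 (Uqcrfs1) at an unadjusted p under 0.05. Summed levels were 709, 728, 716 and 719.6 CPM in the knockdown and 787, 772, 782 and 773 CPM in the scrambled libraries. The groups do not overlap, and the mean fell by 7.71%.

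Uqcrc1 (chr9:108936633-108949623), a core protein related to the mitochondrial processing peptidases, had the smallest adjusted p of the 36 members. Its level was 176, 171, 169 and 169 CPM in the knockdown and 205, 206, 201 and 202 CPM in the scrambled libraries. The gap between the groups is wider than the range within either. The fall was 1.19-fold (log2 fold change −0.25, SE 0.0255, adjusted p = 3.67e-08).

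Uqcrc2 (chr7:120635176-120659524), its partner in the core, fell less. It had 151, 153, 159.9 and 159 CPM in the knockdown and 167, 164, 173 and 165 CPM in the scrambled libraries, without overlap (log2 fold change −0.10, SE 0.0287, adjusted p = 0.00451). It shares 504 exon bases with Pdzd9 on the opposite strand. Cyc1 (chr15:76343523-76346260), which carries the haem that reduces cytochrome c, had 157, 158, 154 and 159.6 CPM in the knockdown and 183, 179, 173 and 171 CPM in the scrambled libraries. These groups do not overlap, and the fall was 1.12-fold (log2 fold change −0.17, SE 0.0281, adjusted p = 3.44e-05).

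Uqcrfs1, the Rieske iron-sulfur protein, had 99.9, 108, 99.8 and 101 CPM in the knockdown and 94.6, 92.4, 100.1 and 98.2 CPM in the scrambled libraries. Scrambled replicate 3 reaches into the knockdown range, and the gene was not called (log2 fold change 0.08, SE 0.0348, adjusted p = 0.0543); without that replicate it was called higher, at 0.10. The small subunits Uqcrb and Uqcrq stood at 61.0 ± 1.53 against 64.0 ± 3.46 CPM (adjusted p = 0.175) and at 71.2 ± 5.14 against 70.4 ± 1.53 CPM (adjusted p = 0.789). Uqcrb has 3 annotated pseudogenes that each match over 62% of its transcript, so its counts are uncertain, and without scrambled replicate 2 it was called lower, at −0.10.

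Cytochrome c, Cycs (chr6:50562563-50566538), shuttles electrons from complex III to complex IV and, once released from mitochondria, helps start apoptosis. It had 102, 106, 105 and 102 CPM in the knockdown and 121, 125, 122 and 123 CPM in the scrambled libraries. All knockdown libraries lie well below all scrambled ones, a 1.18-fold fall (log2 fold change −0.24, SE 0.0293, adjusted p = 5.67e-07). Cycs has 4 annotated near-identical copies, the longest of which, Gm10053, matches 30.3% of the transcript, so reads from that stretch are uncertain. Its testis form Cyct had 0 counts in 7 libraries and 0.0504 CPM in scrambled replicate 2.

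Complex IV, cytochrome c oxidase, reduces oxygen to water. Of its 11 members 4 rose (Cox7c, Cox6a1, Cox4i1 and Cox8a), 1 fell (Ndufa4) and 6 did neither. That is 45.5% called, near the 47.9% of all tested genes, with 36.4% higher against 23.8%. Summed levels were 1311, 1341, 1331 and 1322 CPM in the knockdown and 1295, 1256, 1259 and 1290.3 CPM in the scrambled libraries. The lowest knockdown sum is above the highest scrambled one, by less than the range within either group, and the mean was 4.04% higher.

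Cox7c (chr13:86044816-86046904), a small single-span subunit, had the largest fold of the 36 members. It had 43.6, 45.3, 43.1 and 42.4 CPM in the knockdown and 32.3, 34.6, 37.6 and 39.1 CPM in the scrambled libraries. The scrambled libraries are spread more widely but stay below every knockdown library. The rise was 1.21-fold (log2 fold change 0.28, SE 0.0531, adjusted p = 0.000165). The pseudogene Gm10012 matches 32.9% of the transcript and had 1 count in all libraries together.

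Cox6a1 (chr5:115345642-115348981) is the widely expressed form of a subunit that has a separate heart and muscle form, Cox6a2. It had 119, 128, 120.1 and 122 CPM in the knockdown and 105, 104, 105 and 105 CPM in the scrambled libraries. The scrambled values lie close together, and all knockdown values are higher. The rise was 1.17-fold (log2 fold change 0.22, SE 0.0305, adjusted p = 2.86e-06).

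Cox4i1 (chr8:120668222-120674207), the common form of a subunit that joins early in assembly, had 216, 208, 214 and 212 CPM in the knockdown and 189, 181, 178 and 181 CPM in the scrambled libraries. The groups are widely separate (log2 fold change 0.22, SE 0.0266, adjusted p = 4.66e-07). It shares 154 exon bases with Emc8 on the opposite strand. Cox8a (chr19:7215153-7217616), a small membrane subunit, had 130.3, 142, 139 and 131 CPM in the knockdown and 119, 116, 118 and 133 CPM in the scrambled libraries. Scrambled replicate 4 lies above knockdown replicates 1 and 4, so the groups overlap (1.11-fold higher, log2 fold change 0.16, SE 0.0388, adjusted p = 0.00205).

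Ndufa4 (chr6:11900292-11907497) went the other way. It had 155, 162, 159 and 162 CPM in the knockdown and 182, 170.0, 172 and 179 CPM in the scrambled libraries, without overlap. The log2 fold change was −0.14 (SE 0.0289, adjusted p = 0.000389). Counted with complex I, after its name, it would give complex I 2 falls and complex IV 0.

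The remaining subunits of complex IV were not called. Cox7b, a small membrane subunit, had 124, 126, 127 and 125 CPM in the knockdown and 121, 122, 119 and 117 CPM in the scrambled libraries, which do not overlap (log2 fold change 0.07, adjusted p = 0.0523). Without scrambled replicate 1 or 2 it was called higher, at 0.08 in each case. Cox5a and Cox5b, on the matrix side, stood at 149.6 ± 1.75 against 154 ± 1.91 CPM (adjusted p = 0.200) and at 84.3 ± 1.82 against 85.6 ± 3.10 CPM (adjusted p = 0.613). Cox6b1, on the side of the intermembrane space, stood at 153 ± 2.94 against 154 ± 5.32 CPM (adjusted p = 0.759). The log2 fold changes of Cox6c and Cox7a2 were 0.03 and −0.03 (adjusted p = 0.570 and 0.593).

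**Figure D2:**
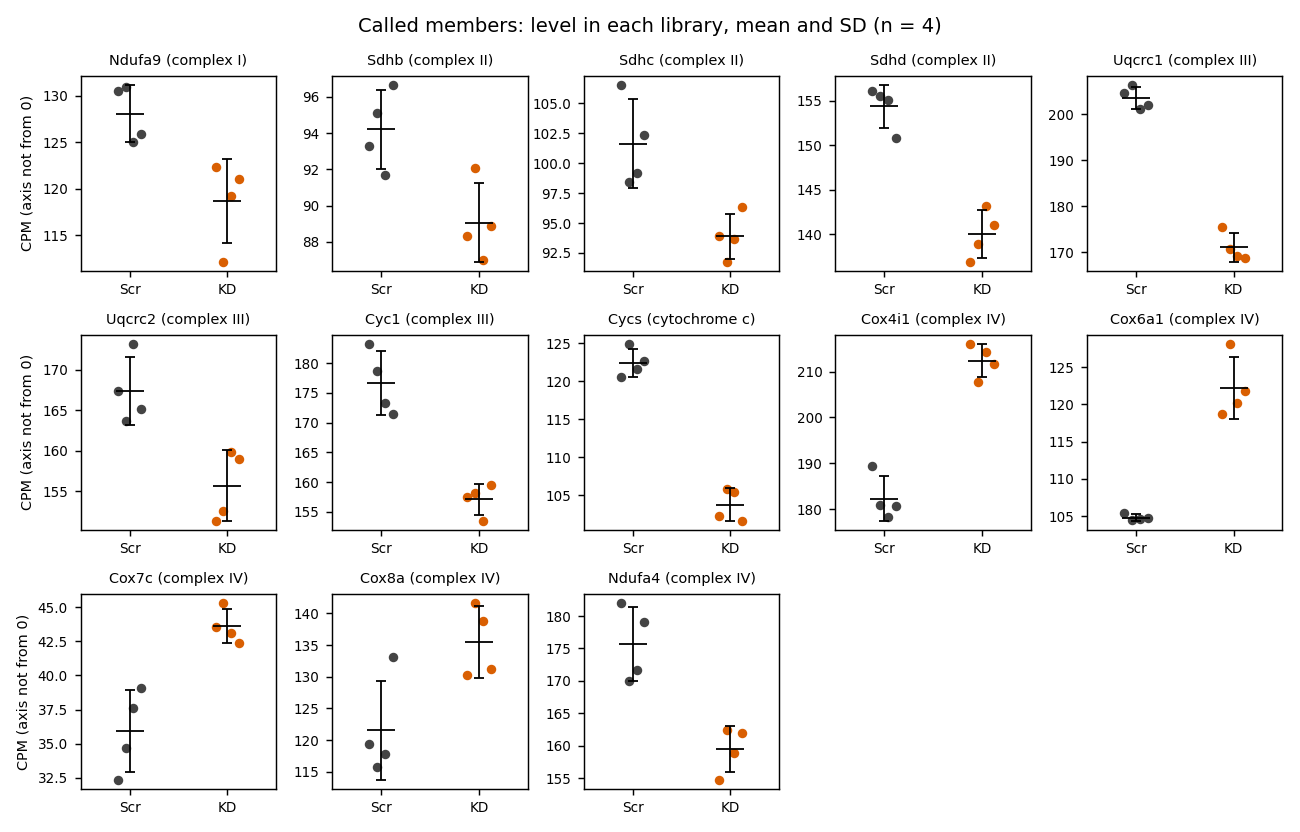
Level in CPM (y axis, not starting at 0) of the 13 called members in the 4 scrambled (Scr, dark grey) and 4 knockdown (KD, orange) libraries, with the mean and SD in black. The groups overlap for Sdhb and Cox8a and are separate for the other 11 genes.

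Tissue-restricted forms of these subunits were nearly silent. Cox4i2, Cox7b2, Cox8b, Cox8c and Ndufa4l2 had 0 counts in all libraries, and Cox6a2 had 0 counts in 7 libraries and 0.0485 CPM in scrambled replicate 1. Cox7a1 stood at 0.988 ± 0.264 CPM in the knockdown and 0.832 ± 0.175 CPM in the scrambled libraries, and Cox6b2 at 0.436 ± 0.168 against 0.262 ± 0.0369 CPM. The paralog Cox7a2l, which takes part in joining complexes into supercomplexes, rose 1.08-fold, with 69.3, 70.8, 69.9 and 67.7 CPM in the knockdown and 62.8, 65.5, 63.4 and 64.9 CPM in the scrambled libraries (adjusted p = 0.0105). Its groups do not overlap.

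Levels of different members were compared per length, as CPM per kb of annotated exon (mean of the 8 libraries). Complex IV members stood highest, with Cox6b1 at 217, Cox8a at 208, Cox6a1 at 162, Cox4i1 at 127 and Ndufa4 at 121 CPM per kb, and its lowest member was Cox6c at 18.7. Complex II ran from Sdhc at 30.1 to Sdhd at 119.6, and complex III from Uqcrq at 38.7 to Cyc1 at 77.5 CPM per kb. Complex I ran from Ndufb5 at 9.20 to Ndufa2 at 117 CPM per kb. Neighbours in this order often overlap within their spread; in the knockdown Cox8a stood at 219 ± 9.07 and Cox6b1 at 216 ± 4.15 CPM per kb. The length counts all annotated isoforms, so a gene with long, possibly unused exons, such as Ndufb5 with 4995 bases, comes out low.

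**Figure D3:**
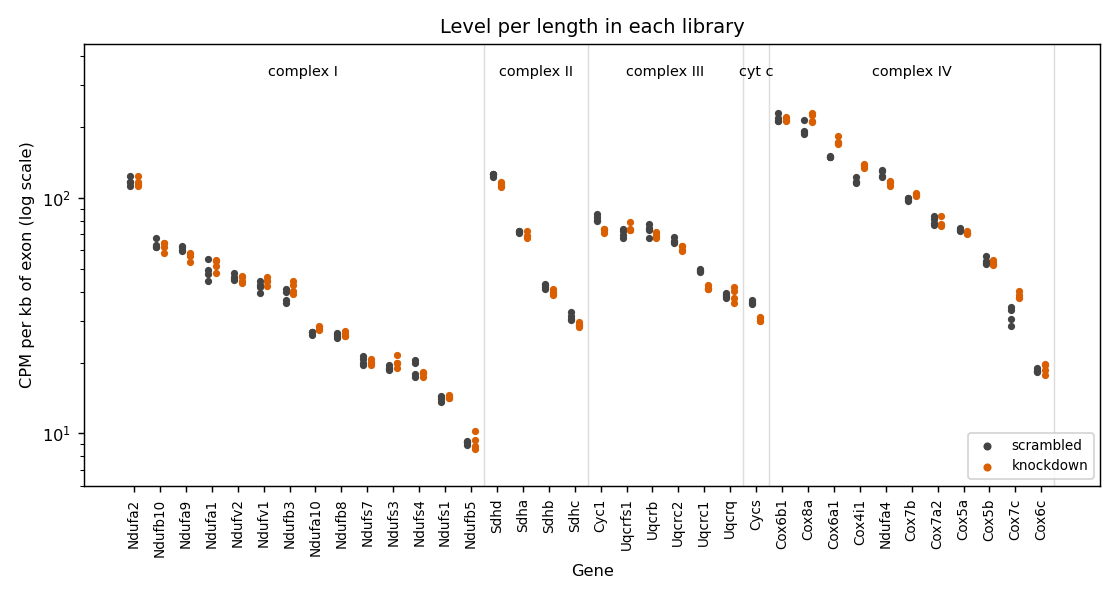
Level per kb of annotated exon (log scale) of each member in the scrambled (dark grey) and knockdown (orange) libraries, ordered within each complex. Genes range from Ndufb5 at 9.20 to Cox6b1 at 217 CPM per kb, and the groups lie close together beside these differences.

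Most called members had the sign of their chromosome's median. Over the tested genes of each chromosome the median log2 fold change was 0.207 on chromosome 8, 0.137 on chromosome 5 and 0.110 on chromosome 19, and −0.108 on chromosome 6 and −0.0853 on chromosome 9. Cox4i1, Cox6a1 and Cox8a lie on the first 3, and Ndufa9, Cycs, Ndufa4, Sdhd and Uqcrc1 on the last pair. Uncalled members lie there too, Ndufb8 and Ndufv1 on chromosome 19 and Cox5a and Cox7a2 on chromosome 9. On chromosome 18 the median was −0.0875, and its member Ndufa2 was not called, at −0.00436. Of the 13 called members 12 had the sign of their chromosome's median, Sdhc being the exception, as had 72.4% of 5617 called genes overall. Over all 36 members, called or not, 24 had that sign. The median can be close to 0, as on chromosome 13 (0.0218), which holds Cox7c. What sets these chromosome-wide differences was not tested.

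The same fit was repeated with each chromosome's median subtracted, an alternative chosen after the data had been seen. It called 9 members and 40.9% of all tested genes. Of the 13 called members 6 kept their call: Cox7c at a log2 fold change of 0.26 (adjusted p = 0.000507), Cox6a1 at 0.08 (0.0299), Uqcrc1 at −0.17 (1.73e-05), Sdhc at −0.16 (0.000467), Cycs at −0.13 (0.00103) and Cyc1 at −0.12 (0.00158). The other 7 lost it, with Cox4i1 at 0.01 (0.713), Ndufa9 at −0.00134 (0.980), Ndufa4 at −0.03 (0.413), Cox8a at 0.05 (0.359), Sdhb at −0.03 (0.485), Uqcrc2 at −0.04 (0.230) and Sdhd at −0.06 (0.109). Cox7b was then called higher at 0.10, and Sdha and Ndufb8 lower at −0.07 and −0.09. Among the genes of other gene lists that follow, Ndufa13, Sdhaf2, Uqcc3, Uqcr10, Uqcr11, Atp5j2, Mdh2, Dhodh and Nrf1 lost their call in this fit.

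**Figure D4:**
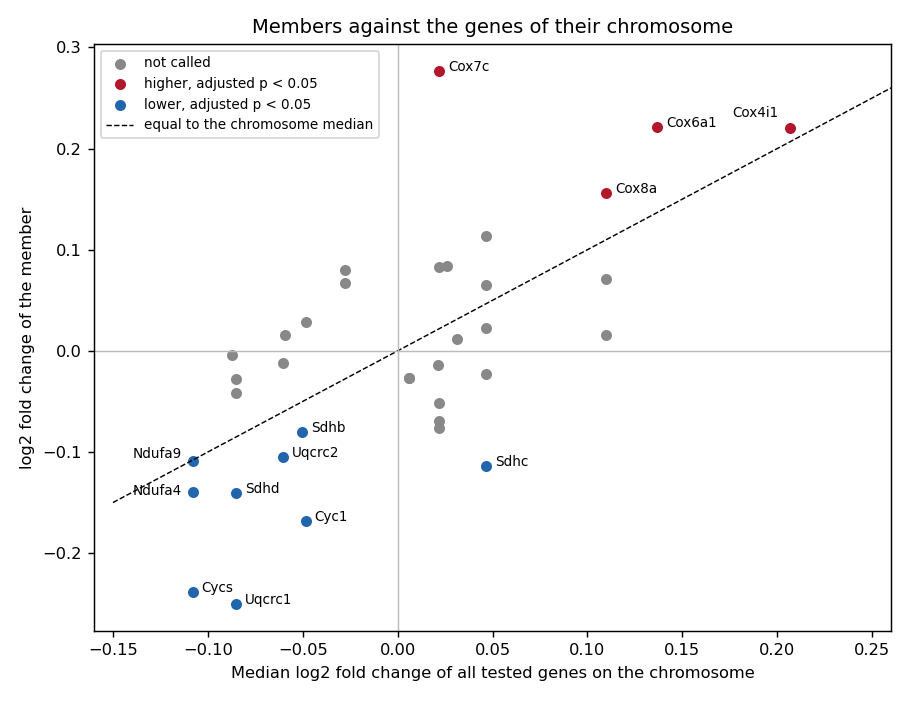
The log2 fold change of each member (y axis) against the median log2 fold change of all tested genes on its chromosome (x axis), with red, blue and grey for called higher, called lower and not called; the dashed line marks equal values. Cox4i1 and Ndufa9 lie on or near the line, while Cox7c, Uqcrc1, Sdhc and Cycs lie farthest from it among the called genes.

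Among other genes of the same complexes, 28.6% of the tested complex I subunits and 66.7% of the 3 complex III subunits were called. Over all tested genes the share was 47.9%. Of 21 tested further subunits of complex I 3 rose and 3 fell. Log2 fold changes were negative for 16 of the 21, with a median of −0.06, and for 5860 of all 11797 tested genes. Relative to the chromosome medians 0 of the 21 were called higher and 4 lower. Ndufa13 (chromosome 8) stood at 66.9 ± 2.52 CPM in the knockdown and 57.0 ± 0.581 CPM in the scrambled libraries (log2 fold change 0.23, adjusted p = 2.89e-05), and Ndufa5 (chromosome 6) at 43.3 ± 1.02 against 51.9 ± 0.693 CPM (−0.26, 1.2e-05). Ndufa13 shares 375 exon bases with Tssk6. Of the other 3 complex III subunits Uqcr11 rose (log2 fold change 0.10, adjusted p = 0.0402), Uqcr10 fell (−0.10, 0.0435) and Uqcrh was not called. These calls of Uqcr11 and Uqcr10 were lost in 9 and 12 of 18 other settings, with log2 fold changes of 0.08 to 0.13 and of −0.11 to −0.04; leaving out any of knockdown replicates 1 to 3 or scrambled replicate 3, scrambled replicate 1 (Uqcr11) or scrambled replicate 4 (Uqcr10) ended the call.

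Assembly factors moved in both directions, as did all tested genes (23.8% higher, 24.1% lower). For complexes I to IV 35.7%, 25%, 16.7% and 40% of the tested factors were called, against 47.9% of all tested genes. For complex I 2 of 14 tested factors rose and 3 fell, led by Ndufaf3 (8.01 ± 0.236 against 6.27 ± 0.783 CPM; adjusted p = 0.00706 at a log2 fold change of 0.35) and Ndufaf6 (6.55 ± 0.456 against 8.72 ± 0.817 CPM; 0.00138 at −0.41). Sdhaf2, which helps attach the flavin to Sdha, was the single call among 4 complex II factors and rose (54.4 ± 1.2 against 47.6 ± 1.02 CPM, log2 fold change 0.19, adjusted p = 0.000318). Of 6 complex III factors Uqcc3 alone was called (log2 fold change 0.25, adjusted p = 0.0310), and not without scrambled replicate 2 or knockdown replicate 2 or 3, where log2 fold changes were 0.18, 0.18 and 0.20. For complex IV 4 of 20 rose and 4 fell, led by Coa4 (log2 fold change 0.40, adjusted p = 0.0077) and by Cox10, which makes haem O for the complex (25.3 ± 0.704 against 30.2 ± 0.749 CPM, −0.25, 0.000251).

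Of 17 ATP synthase genes 3 rose and 3 fell (17.6% each way, where 23.8% of all tested genes rose and 24.1% fell), led by Atp5j2 (90.1 ± 3.48 against 79.5 ± 3.41 CPM; adjusted p = 0.000419 at a log2 fold change of 0.18) and Atp5g3 (217 ± 5.03 against 249.6 ± 6.04 CPM; 1.52e-06 at −0.20). Of 17 genes of the citrate cycle and pyruvate dehydrogenase 2 rose (11.8%) and 10 fell (58.8%), with a median log2 fold change of −0.08. Relative to the chromosome medians 8 of the citrate cycle genes and 3 of the ATP synthase genes were called lower, and 0 of either list higher. The difference between the lists was not tested. Ogdh, of the 2-oxoglutarate dehydrogenase complex, fell most (226 ± 4.45 against 290.0 ± 15.2 CPM; adjusted p = 2.52e-09 at a log2 fold change of −0.36), and Mdh2, the mitochondrial malate dehydrogenase, rose (302 ± 4.75 against 276 ± 5.44 CPM; 0.000116 at 0.13).

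Ubiquinone synthesis and other electron donors gave 3 rises and 5 falls among 19 tested genes. That is 42.1% called, and the control factors named below had 25%, against 47.9% of all tested genes. Dhodh, the pyrimidine-synthesis enzyme that feeds ubiquinone, rose (20.5 ± 1.04 against 17.6 ± 1.30 CPM; adjusted p = 0.0082 at a log2 fold change of 0.22), and Prodh, proline dehydrogenase, fell (18.6 ± 1.37 against 25.5 ± 2.00 CPM; 9.74e-06 at −0.45). Of 12 factors that control mitochondrial genes 1 rose, the mitochondrial transcription factor Tfb2m (log2 fold change 0.21, adjusted p = 0.0089), and 2 fell. The falls were of Nrf1 (54.1 ± 0.571 against 60.1 ± 2.74 CPM, −0.15, 0.00333) and of the coactivator Ppargc1b, which is below the level set for naming and was added after its values were seen (1.61 ± 0.382 against 2.53 ± 0.328 CPM, −0.67, 0.00644).

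**Figure D5:**
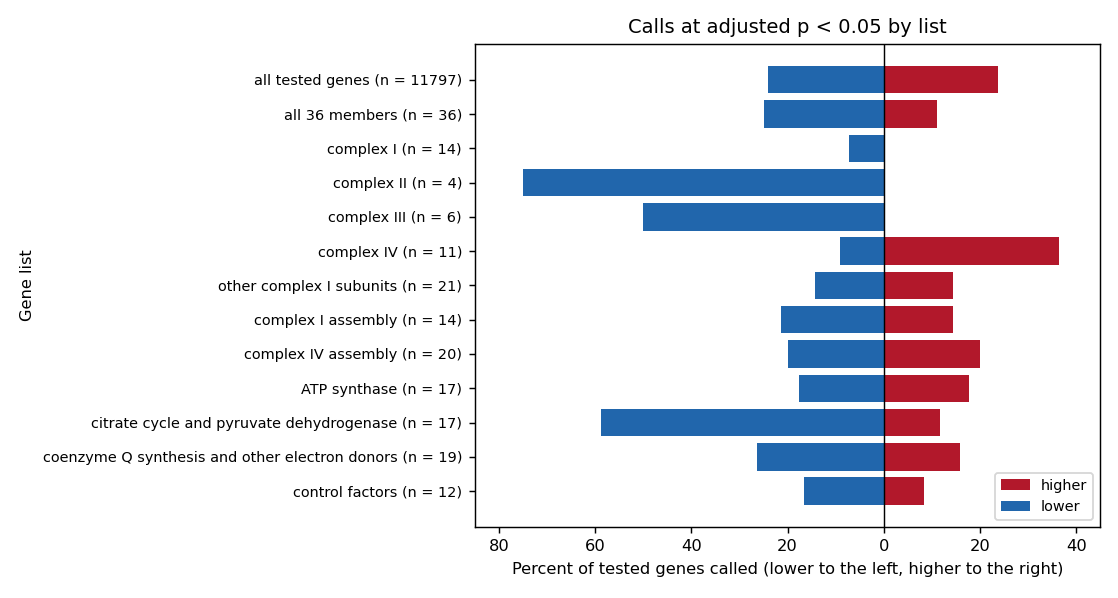
Percent of tested genes called lower (blue, to the left) and higher (red, to the right) at an adjusted p under 0.05 in all tested genes, the members and the larger other lists, with the number tested in parentheses. Among the 4 complexes only complex IV has a red bar, at 36.4%, and complexes II and III, with 4 and 6 genes, have blue bars only.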

How the data were processed

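Raw counts per gene symbol, as deposited by the authors, were used for 8 libraries; all columns matched a sample. Per the labels' protocols, RNA with a RIN of at least 7 went through a stranded poly(A) kit and was read as 59-base pairs. The submitters' processing notes name bcl2fastq 2.20, Bowtie, STAR, DESeq2 1.36.0, R 4.2.1 and mm10. How reads were assigned to genes, with which gene models and whether by strand, is not given in the sources used here. Genes were filtered with edgeR 4.0.16 in R 4.3.3 (minimum count 10, minimum total 15), which left 11797, scaled with TMM factors of 0.9905 to 1.01, and tested with the quasi-likelihood test on 4 against 4 libraries, after the scripts had been tested on simulated data. Levels are CPM on the scaled library sizes, and 95% intervals are 1.96 SE either side. DESeq2 1.42.0 and limma 3.58.1 (voom) were alternatives. Chromosomes, exons, UTRs and overlaps came from GENCODE vM21 (GRCm38). Near-identical copies were annotated transcripts with alignments of at least 59 bases at 95% identity that cover at least 200 bases. The members and lists were chosen with earlier results of these data known. Library values are given for up to 3 called members per complex and direction with the largest log2 fold change and no overlap between groups, for complex II and for Cycs; those of Ndufa10, Uqcrfs1, Cox8a, Cox7b and Cox7a2l were added after their values were seen. From each other list the called gene with the largest change in each direction and a mean of at least 5 CPM was named. The labels name nothing that same-numbered libraries share, so the main fit did not pair them.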

Additional observations from a re-analysis of the deposited data

Results flagged for a closer look

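Of 82 groups of 4 library values examined, 3 held a value far from the others of its group, where chance flags about 5% of groups. Ndufs4 stood at 47.0 CPM in knockdown replicate 2 and at 48.8 to 49.1 CPM in the other knockdown libraries. Uqcrfs1 stood at 108 CPM in the same replicate and at 99.8 to 101 CPM in the others. The summed complex II level was 655 CPM in scrambled replicate 1 and 644 to 645 CPM in the other scrambled libraries. Their causes were not tested.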

How the results depend on the processing

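Calls of 6 members (Cox6a1, Cox7c, Cyc1, Cycs, Sdhc and Uqcrc1) held in all 18 alternatives. Upper-quartile scaling gave 8 members higher (2 in complex I, 1 in complex III), and library totals alone 10 (4 and 1). A filter of at least 1 CPM in 4 libraries gave 1 rise in complex III. Counting Ndufa4 with complex I gave 2 falls there and 0 in complex IV. Subtracting chromosome medians, an alternative added after the data were seen, gave 0 falls in complex IV and turned Ndufb8 to −0.0942 and Mdh2 to −0.00717; in all 8 members changed sign (also Ndufa2, Ndufb5, Ndufs1, Ndufv1, Cox5a, Cox6b1 and Cox7a2, none called in either fit). Leaving out 1 replicate at a time gave 4 to 6 members higher and 8 to 10 lower, with 0 to 1 rises in complex I and 0 to 1 in complex III; each 1 came without scrambled replicate 3. Without scrambled replicate 2, the library that stood apart, 5 members were higher and 10 lower. DESeq2 gave 4 higher and 8 lower, and limma-voom 4 and 9. At an adjusted p under 0.01, 4 and 8 were called. Causes of these shifts were not tested.

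With the replicate number as a block (replicate block), 5533 genes were called in place of 5645, and 4 members were higher and 8 lower, Sdhb being lost. Deviations of same-numbered libraries correlated at −0.0199, 0.0157, −0.0306 and −0.0497, and those of differently numbered ones at −0.0321 to 0.0439. Not every library correlated best with its own number. Values this small show no pairing by number, but they cannot exclude a shared preparation. Every member had at least 18.6 CPM in each library. Precision is limited by the 4 libraries per group, and by 1 line per vector.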
